A study of Mus musculus with 26 samples.

Results

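Figla, Nobox, Lhx8, Sohlh1 and Sohlh2, transcription factor genes of early follicles, were followed in single cells of fetal mouse ovaries. They were taken by symbol from the count table, and all 5 were found among the 16344 genes read. The cells came from female embryos of mice with the BVSC reporters, which drive mVenus from Blimp1 (Prdm1) and ECFP from Stella (Dppa3). No group carried another allele or received a treatment. Gonads of several embryos were combined at each stage, so a library is not an animal. Embryos were collected daily from E11.5 to E18.5, with the plug day counted as E0.5. Fluorescence sorting gave 1302 BVSC cells (both reporters), 529 Negative cells and 50 BV cells, 1881 in all, in 26 libraries numbered here by their place in the series.

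Primordial follicles form when germ cells leave their nests and each oocyte is enclosed by pregranulosa cells, around birth in the mouse. Figla encodes a basic helix-loop-helix factor known for activating the zona pellucida genes. Sohlh1 and Sohlh2 encode related basic helix-loop-helix factors that act in early oocytes and in spermatogonia and can pair with each other. Nobox encodes a homeodomain factor and Lhx8 a LIM-homeodomain factor, and mouse ovaries that lack either lose their oocytes early. Basic helix-loop-helix dimers bind the E-box, CANNTG, and Nobox binds sites with the core TAATTG or TAATTA.

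The upstream sequences are shown because 3 of the 5 factors belong to the E-box binding class, and Sohlh1, whose levels by gate went against the other members before E15.5, has the most E-boxes among them. Each is the 250 bases before the RefSeq start in GRCm38.p6 (mm10), written 5′ to 3′ on the gene's strand, with capitals on every CANNTG match. The windows are chr2:25847249-25847498 on the minus strand for Sohlh1, chr6:43309555-43309804 on the minus strand for Nobox and chr6:86016941-86017190 on the plus strand for Figla. None holds a base of a GENCODE M21 exon, and the Figla window lies inside the GENCODE gene, whose first base is further upstream.
Sohlh1: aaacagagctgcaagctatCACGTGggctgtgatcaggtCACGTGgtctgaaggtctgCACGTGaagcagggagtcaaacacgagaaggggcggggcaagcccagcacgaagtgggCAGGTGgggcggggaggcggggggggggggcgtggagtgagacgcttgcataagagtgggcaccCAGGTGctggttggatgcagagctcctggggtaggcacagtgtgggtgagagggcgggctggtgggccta
Nobox: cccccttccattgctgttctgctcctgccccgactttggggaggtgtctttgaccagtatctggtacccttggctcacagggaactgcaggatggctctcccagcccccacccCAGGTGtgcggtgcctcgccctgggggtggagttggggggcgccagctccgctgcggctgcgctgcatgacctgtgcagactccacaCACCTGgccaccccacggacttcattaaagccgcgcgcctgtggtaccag
Figla: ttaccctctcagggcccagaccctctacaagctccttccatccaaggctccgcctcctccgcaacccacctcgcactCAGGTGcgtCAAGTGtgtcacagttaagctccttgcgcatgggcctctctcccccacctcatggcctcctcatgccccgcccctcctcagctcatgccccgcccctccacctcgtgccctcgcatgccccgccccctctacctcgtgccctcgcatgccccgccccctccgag

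The Sohlh1 window held 5 E-box matches. Of these, 3 were CACGTG, which begin 231, 211 and 192 bases before the start, and 2 were CAGGTG, at 134 and 70 bases. Over 32841 upstream windows of the same length, 66.2% held at least 1 CANNTG on either strand, 12.2% at least 3, 6.02% at least 1 CACGTG and 0.0609% at least 3 CACGTG. Nobox held 2 matches of CAGGTG (or its reverse complement, CACCTG), as did 2.06% of windows at least. Figla held 1 CAGGTG, found in 17.2% of windows, and 1 CAAGTG. Sohlh2 held a single CANNTG and Lhx8 none, and their windows are not printed because they overlap exons. TAATTG (7.17% of windows) and TAATTA (4.84%) occurred in none of the 5 windows on either strand. These matches describe letters and not bound sites.

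The 5 genes lie on 3 chromosomes. Sohlh1 spans chr2:25842995-25847248 and Lhx8 chr3:154306294-154330659, both on the minus strand. Sohlh2 spans chr3:55182028-55209957 and Figla chr6:86016171-86020996, both on the plus strand, and Nobox spans chr6:43303674-43309554 on the minus strand. No other annotated gene overlaps any of them.

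A BVSC cell had a median of 248293 unique molecular identifiers (UMIs, which count molecules and not reads), and a Negative cell 169412. Cells were summed by library, stage and gate into 18 BVSC pools of 26 to 96 cells and 17 Negative pools of 8 to 48 cells. The level of a gene is given in CPM, its UMIs scaled to 1e6 of a pool's deposited UMI total. The summed level of the 12 germ cell markers ran from 1769 to 4432 CPM in BVSC pools and from 21.9 to 830 CPM in Negative pools. That of the 10 somatic markers read, of 13 listed, ran from 14.6 to 240 CPM in BVSC pools and from 1450 to 2518 CPM in Negative pools, so gates and markers matched at the level of pools. Dppa3 and Prdm1, whose reporters define the gates, are among the germ cell markers, so the sort itself set part of this match. By cell, 16 of the BVSC cells had fewer germ than somatic marker UMIs and 21 of the Negative cells had more.

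Sohlh2 was present in BVSC cells from the first stage, rose to E14.5 and then fell. Its level was 77.7 and 53.4 CPM in the 2 libraries of E11.5, 104.9 and 86.4 CPM at E12.5, and 169.4 and 133.9 CPM at E13.5. The 4 libraries of E14.5 had 151.5, 139.1, 203.4 and 186.5 CPM, all above both libraries of E11.5 and E12.5. From E15.5 on, the pairs of libraries had 121.1 and 123.8, 90.2 and 72.8, 88.4 and 89.1, and 95.1 and 74.8 CPM, and all 8 values lay below the lowest of E14.5. Among the 5 genes, this rise and fall was seen for Sohlh2 alone.

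Figla had 1 UMI in the 2 libraries of E11.5 together, and came up before the other 3 late genes. It stood at 1.51 and 1.14 CPM at E12.5, and at 11.7 and 1.99 CPM in libraries 3 and 10 of E13.5. At E14.5 the 4 libraries had 120.9, 47.4, 100.6 and 81.4 CPM, none of which overlapped an earlier stage. The level was 276.3 and 192.9 CPM at E15.5, 212.2 and 391.7 CPM at E16.5, 599.1 and 300.6 CPM at E17.5, and 556.3 and 919.1 CPM at E18.5. Neighbouring stages overlapped from E15.5 on.

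Lhx8 climbed slowly from low values. It had 0 and 0.182 CPM at E11.5, 0.452 and 1.08 CPM at E12.5, 2.75 and 1.52 CPM at E13.5, and 1.06, 4.69, 3.49 and 5.59 CPM at E14.5. It then had 16.2 and 9.11 CPM at E15.5, 30.8 and 74.2 CPM at E16.5, 226.5 and 47.2 CPM at E17.5, and 317.9 and 420.6 CPM at E18.5. Both libraries of E18.5 were above all earlier ones.

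Nobox stayed near the detection limit until E14.5, where its 4 libraries had 0.235, 0, 0.546 and 0.732 CPM, within the range of 0 to 1.14 CPM of the earlier libraries. Its level was 7.53 and 3.80 CPM at E15.5, 10.3 and 45.3 CPM at E16.5, 165.6 and 19.5 CPM at E17.5, and 225.3 and 385.6 CPM at E18.5. All libraries from E15.5 on were above all libraries up to E14.5.

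Sohlh1 in BVSC cells likewise stayed low through E14.5, at 0 to 2.66 CPM in the first 6 libraries and 0.704, 0.652, 4.18 and 0.963 CPM at E14.5. The 2 libraries of E15.5 then differed widely, with 0.371 CPM in library 16 and 36.5 CPM in library 18. Levels were 19.1 and 82.4 CPM at E16.5, 302.0 and 43 CPM at E17.5, and 345.0 and 441.2 CPM at E18.5. The same library was the higher one for Figla, Nobox, Lhx8 and Sohlh1 at E16.5 (library 22) and at E17.5 (library 24).

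**Figure D1:**
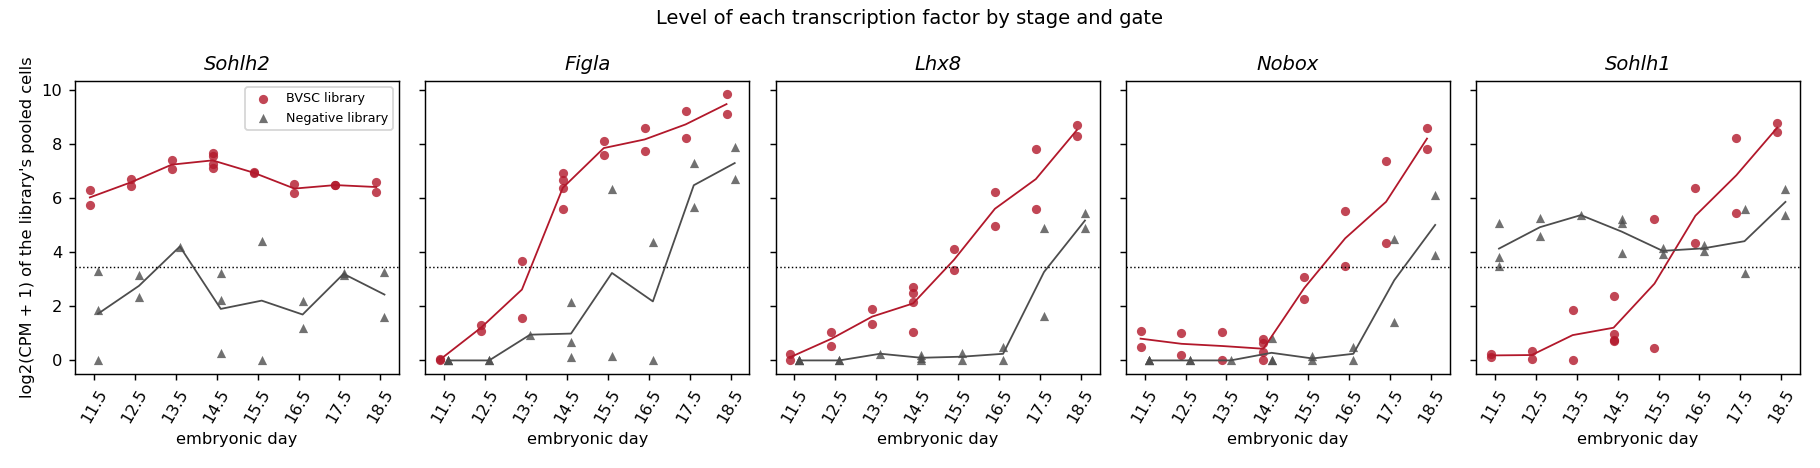
Level of each gene as log2(CPM + 1) of a library's pooled cells (y axis) against embryonic day (x axis). Circles are BVSC libraries, triangles Negative libraries, lines join the stage means, and the dotted line marks 10 CPM. Sohlh2 starts high in BVSC libraries and Figla passes the line by E14.5, ahead of Nobox, Lhx8 and Sohlh1, whereas Sohlh1 starts above the line in Negative libraries.

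Onset was read as the first stage at which every BVSC library had at least 10 CPM. By this reading the order was Sohlh2 at E11.5, Figla at E14.5, and Nobox, Lhx8 and Sohlh1 together at E16.5. At E16.5 the levels of the last 3 overlapped between libraries, but Nobox was the lowest within each library. It had 10.3 CPM against 19.1 (Sohlh1) and 30.8 (Lhx8) in library 20, and 45.3 CPM against 82.4 and 74.2 in library 22. Lhx8 and Sohlh1 changed places between these libraries, so no order between those genes can be read at that stage. Before it, Lhx8 lay above Nobox without overlap. It had 1.06 to 5.59 against 0 to 0.732 CPM at E14.5, and 9.11 to 16.2 against 3.80 to 7.53 CPM at E15.5. Sohlh1 overlapped both, with 0.652 to 4.18 CPM at E14.5 and 0.371 to 36.5 CPM at E15.5. Since a common threshold depends on how well each gene's 3′ end is captured, each gene was also set against its own highest stage mean. Figla reached 11.9% of its E18.5 mean at E14.5, 31.8% at E15.5 and 40.9% at E16.5. At the same 3 stages Lhx8 stood at 1.0%, 3.43% and 14.2% of its own, Sohlh1 at 0.413%, 4.68% and 12.9%, and Nobox at 0.124%, 1.85% and 9.11%. The lead of Figla thus did not rest on the shared threshold. The first stage with at least 50% of the highest mean was E12.5 for Sohlh2, E17.5 for Figla and E18.5 for the other 3.

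Stages were compared on counts of the BVSC pools with the quasi-likelihood test of edgeR and Benjamini-Hochberg adjustment over all 10246 genes tested, a set that held all 5 members. From E11.5 to E14.5, 3 of the 5 were higher and none was lower, where 13.9% of all genes passed (8.35% higher, 5.58% lower). Figla had 6636 UMIs at E14.5 against 1 at E11.5, a ratio of 3290 per UMI sequenced with a 95% counting interval of 590 to 130000 (adjusted p = 4.17e-07). Lhx8 rose by 4.92 ± 0.97 (SE) on the log2 scale (adjusted p = 0.00172). Sohlh2 rose by 1.19 ± 0.23 (adjusted p = 0.00152), a call lost without library 7 of E11.5 (0.98, adjusted p = 0.0712). Nobox (−1.15 ± 1.07, adjusted p = 0.502) and Sohlh1 (3.44 ± 1.78, adjusted p = 0.212) did not pass. The labels do not say that libraries came from separate animals, so a p-value here speaks of spread among libraries, part of which may be technical.

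Day by day, few steps passed. None of the 5 passed at E12.5 against E11.5, where 0.0683% of all genes did, or at E13.5 against E12.5 (0.0976%). At E14.5 against E13.5, Figla alone passed, with a rise of 3.72 ± 0.55 (adjusted p = 0.00114), where 1.33% of all genes did. Its call held in all 27 alternative settings, over which the rise ran from 3.00 to 5.18. At E15.5 against E14.5, Nobox alone passed (3.70 ± 0.93, adjusted p = 0.0237), where 6.26% of all genes did. The Nobox call was lost without library 4 (3.6, adjusted p = 0.0534), 5 (3.36, 0.0666) or 12 (3.84, 0.054) of E14.5 and without library 16 of E15.5 (3.05, 0.224). Of the 4 libraries of E14.5, libraries 4, 5 and 12 carry the same deposited replicate number, R1, so they may not be separate samples. With pools merged by that number, the Nobox call was also lost (3.45, adjusted p = 0.146), whereas the Figla call at E14.5 held.

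The other 4 members at that step were near the threshold or below it. Figla had 1.37 ± 0.43 (adjusted p = 0.0594), Lhx8 1.69 ± 0.56 (0.0734), Sohlh1 3.32 ± 1.06 (0.0645) and Sohlh2 −0.53 ± 0.22 (0.146). The Sohlh1 value turned to −2.25 (adjusted p = 0.323) without library 18. At E16.5 against E15.5 (0.039% of all genes), E17.5 against E16.5 (0.0%) and E18.5 against E17.5 (0.00976%) none of the 5 passed. At E17.5 against E16.5 edgeR called 0 genes of any kind, with 407 at an unadjusted p under 0.05, and DESeq2 called 21.

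Over the longer span from E14.5 to E18.5 all 5 members passed, 4 of them higher and 1 lower, where 18.9% of all genes passed (9.67% higher, 9.24% lower). Nobox rose by 9.50 ± 1.04 (adjusted p of 4.67e-06), Sohlh1 by 7.82 ± 1.19 (0.000123), Lhx8 by 6.59 ± 0.61 (7.13e-07) and Figla by 3.09 ± 0.43 (5.55e-05), all on the log2 scale. Sohlh2 fell by 1.05 ± 0.23 (0.00283). All 5 calls and directions held in each of the 27 alternative settings.

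A pool's level cannot tell more expressing cells from more RNA per cell, so single cells were counted. To compare stages of unlike depth, each cell was thinned to 50000 UMIs. The share of BVSC cells with a Figla UMI was 12.8% at E13.5 (26.5% before thinning), 63.3% at E14.5 (88.7%) and 94.8% at E15.5 (97.5%). In Negative cells it was 6.02% at E14.5 (15.3%) and 21% at E15.5 (36.5%), with median depths of 208924 and 218078 UMIs against 260311 and 255283 in BVSC cells. The BVSC share was thus above that of the Negative gate at both stages.

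Lhx8, Sohlh1 and Nobox followed in fewer cells. At E16.5 Lhx8 had a UMI in 47.4% of thinned BVSC cells (67.0% before thinning), Sohlh1 in 41.0% (67.0%) and Nobox in 23.7% (42.6%), at a median depth of 162965 UMIs. The Negative cells of E16.5, at 178384 UMIs, had 0% (0 of 87 cells, exact upper limit 4.15%), 25.3% and 1.15%, and 2.17%, 47.8% and 2.17% before thinning. At E18.5 these 3 genes had a UMI in 94.6% to 100% of thinned BVSC cells, and every unthinned BVSC cell had at least 1 of each. The Sohlh2 share was 95.1% at E14.5 (97.5% before thinning) and 90.3% at E18.5 (96.9%).

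Because Negative cells of E17.5 and E18.5 also held these transcripts, a high level of at least 100 CPM was used beside detection. This level did not set Figla apart, since 56.5% of Negative cells at E17.5 and 72.7% at E18.5 reached it. Sohlh1 did so in 6.52% and 15.9% of these cells, Nobox in 0% and 4.55%, and Lhx8 in 2.17% and 2.27%. Figla was high in 29.0% of BVSC cells at E14.5, 71.4% at E15.5, 76.1% at E16.5, 90.1% at E17.5 and 100% at E18.5. Over the last 4 of these stages Lhx8 was high in 2.48%, 9.57%, 33.1% and 76.3%, Sohlh1 in 3.11%, 10.1%, 31.7% and 83.5%, and Nobox in 3.11%, 5.32%, 20.4% and 72.2%. None of these 3 was high in any BVSC cell of E14.5, whereas Sohlh1 was high in 11.7% of Negative cells of that stage. Sohlh2 went the other way, from 74.6% at E14.5 to 50.9%, 26.6%, 36.6% and 24.7%.

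**Figure D2:**
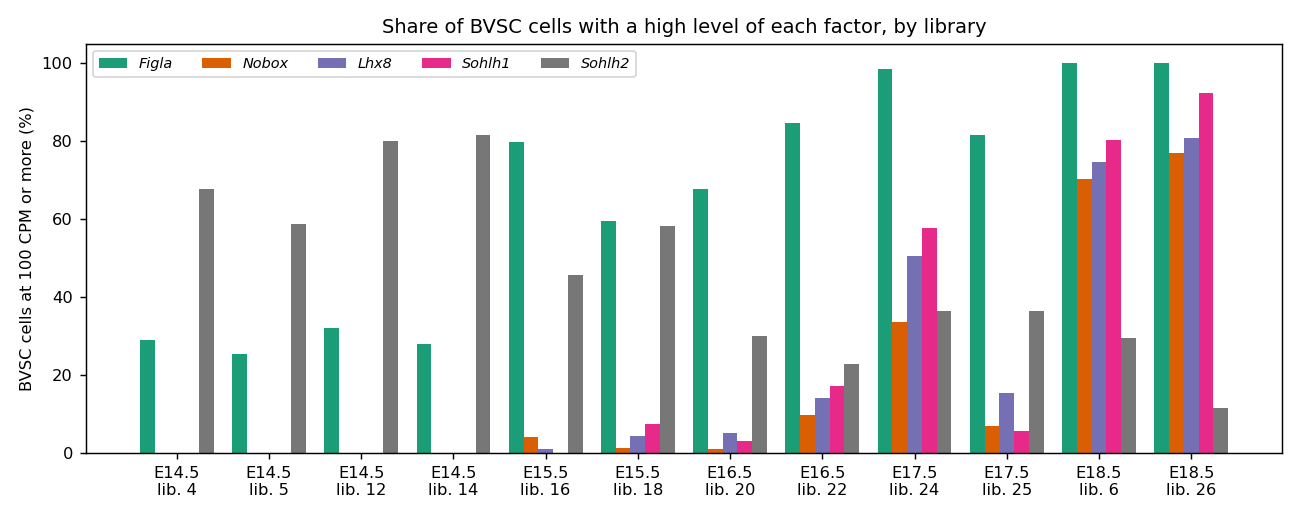
Share of BVSC cells at 100 CPM or more (y axis, percent) for each gene in the 12 libraries of E14.5 to E18.5 (x axis). Bars are single libraries, with no error. Figla is high in over 50% of cells of every library from E15.5, and the other 3 late genes reach that share in both libraries of E18.5 and, for Lhx8 and Sohlh1, in library 24 of E17.5.

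All 5 genes were detected together in more cells at each later stage. After thinning, 23 of 173 BVSC cells held at least 1 UMI of all 5 at E16.5 (13.3%, exact 95% interval 8.62% to 19.3%), 52 of 135 at E17.5 (38.5%, 30.3% to 47.3%) and 81 of 93 at E18.5 (87.1%, 78.5% to 93.2%). The intervals cover counting error only. Thinning left out 15, 7 and 4 shallower cells, and before it the shares were 29.3%, 64.8% and 96.9%. The Negative cells gave 0 of 87 (upper limit 4.15%), 5 of 33 (15.2%) and 6 of 36 (16.7%), and 0%, 32.6% and 40.9% before thinning. Their thinned shares were 26.3% and 0% in libraries 24 and 25 of E17.5, and 0% and 31.6% in libraries 6 and 26 of E18.5. For the set without Sohlh2, the thinned shares at E18.5 were 58.3% of Negative and 94.6% of BVSC cells. By library the BVSC share was 5.56% and 21.7% at E16.5, 67.2% and 10.3% in libraries 24 and 25 of E17.5, and 88.4% and 83.3% at E18.5. Library 24 thus lay above both libraries of E16.5 and library 25 between them, and only E18.5 stood clear of the other stages.

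High levels of Figla, Nobox, Lhx8 and Sohlh1 in the same cell followed the same course. All 4 were at 100 CPM or more in 8 of 188 BVSC cells at E16.5 (1 of 96 and 7 of 92 by library), 24 of 142 at E17.5 (21 of 71 and 3 of 71) and 64 of 97 at E18.5 (46 of 71 and 18 of 26). Not 1 Negative cell of these stages reached this (0 of 92, 0 of 46 and 0 of 44, with exact upper limits of 3.93%, 7.71% and 8.04%). With Sohlh2 added to the set, the counts dropped to 1, 9 and 14 cells, since Sohlh2 was high in fewer cells by then.

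Cells with Figla as the only high gene of these 4 were the largest class at E16.5 (118 cells, beside 45 with none) and at E17.5 (70, beside 12 with none). At E18.5 they were 13 cells, and none lacked a high gene. At E15.5, Figla alone was high in 111 of 161 cells, 5 cells had Sohlh1 alone, 3 Nobox alone and 2 Lhx8 alone. Intermediate patterns at E16.5 to E18.5 were spread over several combinations, such as Figla with Lhx8 and Sohlh1 (4, 11 and 8 cells by stage) and Figla with Sohlh1 (6, 8 and 5 cells).

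**Figure D3:**
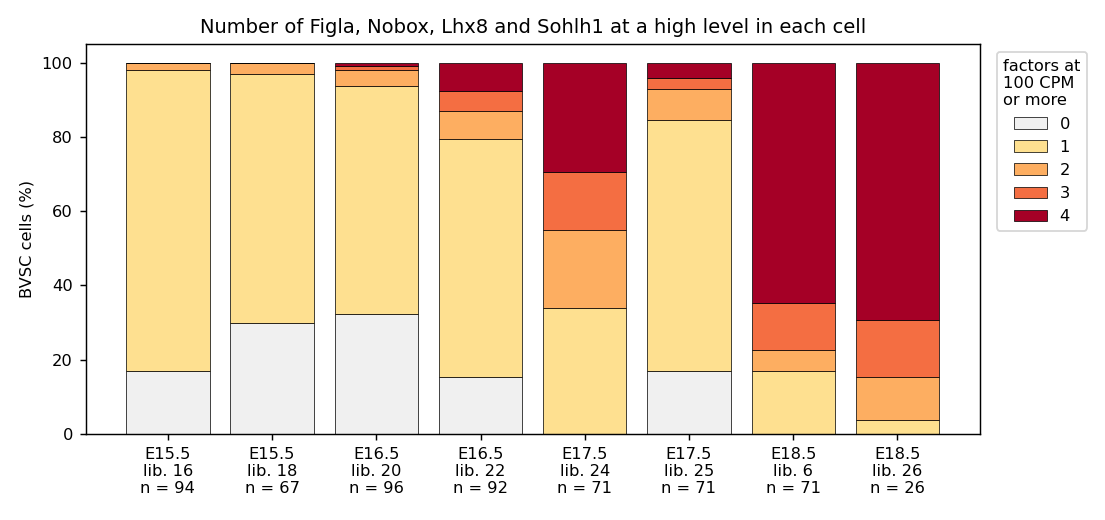
Share of BVSC cells (y axis, percent) by how many of Figla, Nobox, Lhx8 and Sohlh1 were at 100 CPM or more, for each library of E15.5 to E18.5 (x axis). Each bar is 1 library and sums to 100. The class with all 4 holds 1.04% and 7.61% of cells at E16.5, 29.6% and 4.23% at E17.5, and 64.8% and 69.2% at E18.5.

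Nearly every cell high in Nobox, Lhx8 or Sohlh1 was also high in Figla over the 427 BVSC cells of E16.5 to E18.5, but so were most other cells. Of 109 Nobox-high cells, all 109 were Figla-high, against 81.5% of the rest, as were 138 of 139 Lhx8-high cells (79.9% of the rest) and 144 of 145 Sohlh1-high cells (79.4% of the rest). At E18.5 every cell was Figla-high. Of the Nobox-high cells 90.8% were Lhx8-high, against 12.6% of the other 318 cells, and 93.6% were Sohlh1-high, against 14%. These figures pool stages whose levels differ. By stage, the Lhx8-high shares were 90.0% of 10 Nobox-high cells against 5.06% of the rest at E16.5, 86.2% of 29 against 19.5% at E17.5, and 92.9% of 70 against 33.3% at E18.5. The Sohlh1-high shares were 90.0% against 5.62%, 86.2% against 17.7%, and 97.1% against 48.2%, so the gap stood at each stage and was smallest at E18.5. Of the Lhx8-high cells 85.6% were Sohlh1-high, against 9.03% of the rest. Sohlh2 showed no such overlap: it was high in 25.7% of Nobox-high cells and 30.8% of the rest, in 29.5% of Lhx8-high cells and 29.5% of the rest, and in 27.6% of Sohlh1-high cells and 30.5% of the rest. These shares describe cells that share libraries, stages and depth, and no test was made over cells.

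Across cells of a stage, Spearman's rho of log2(CPM + 1) for the 6 pairs among the 4 late genes ran from 0.308 to 0.436 at E16.5 (188 cells), 0.667 to 0.789 at E17.5 (142 cells) and 0.567 to 0.744 at E18.5 (97 cells). Within single libraries the ranges were 0.073 to 0.257 and 0.393 to 0.567 at E16.5, 0.63 to 0.775 and 0.268 to 0.438 at E17.5, and 0.471 to 0.761 and 0.458 to 0.87 at E18.5. At E17.5 the cells of library 25 thus followed each other less closely than all cells of the stage pooled. The 4 pairs with Sohlh2 lay between −0.087 and 0.142 over all cells of each of the 3 stages. Within libraries they differed in sign, from 0.0425 to 0.315 in library 20 and −0.282 to −0.0268 in library 22 at E16.5, −0.146 to −0.022 and 0.0725 to 0.17 in libraries 24 and 25 at E17.5, and 0.0785 to 0.172 and −0.0954 to 0.285 in libraries 6 and 26 at E18.5. In library 20 the Sohlh2 pairs thus reached values as high as those of the 4 late genes.

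**Figure D4:**
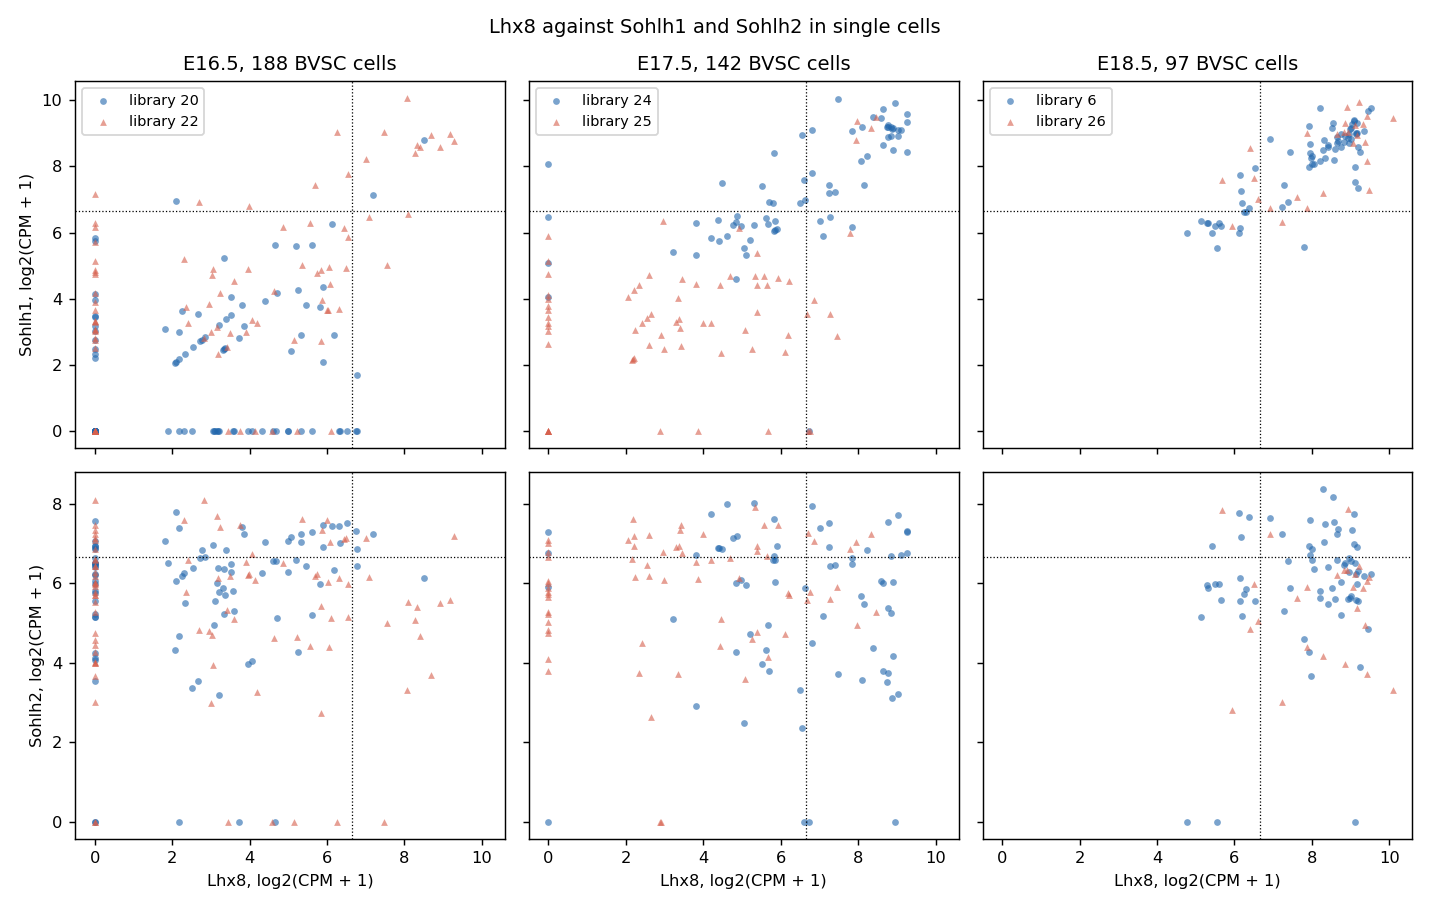
Level of Lhx8 (x axis) against Sohlh1 (top, y axis) and Sohlh2 (bottom, y axis) in single BVSC cells of E16.5, E17.5 and E18.5, as log2(CPM + 1), with marker shape for the library and dotted lines at 100 CPM. Lhx8 and Sohlh1 rise together over the cells of a stage, with E18.5 cells mostly in the upper right, and Sohlh2 shows no such trend. Library 20 of E16.5 differs, with Spearman's rho to Lhx8 of 0.179 for Sohlh1 and 0.279 for Sohlh2.

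Between gates, with stage as a covariate over all 35 pools, 4 of the 5 members were higher in BVSC cells and none was lower, where 67.8% of all 7261 genes tested passed (38.0% higher, 29.8% lower). Sohlh2 was higher by 4.23 ± 0.42 on the log2 scale (adjusted p = 1.49e-10), Lhx8 by 4.85 ± 0.54 (2.16e-09), Figla by 3.65 ± 0.64 (7.2e-06) and Nobox by 3.56 ± 0.71 (5.34e-05), all with edgeR. Sohlh1 had −2.08 ± 1.07 (adjusted p = 0.0835), the only member with a negative value, and passed as lower in 10 of 34 alternative settings. Nobox was tested in 20 of these settings and passed in each. Of the libraries, 10 gave a pool of each gate, and the fits between gates took such pools as separate unless a block for library is named. The sort gates rest on germ cell reporters, so this comparison sets cells chosen as germ cells against the rest.

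Negative cells held Sohlh1 from the first stage on. Its level in Negative libraries was 13.2, 32.8 and 10.4 CPM at E11.5, 23.2 and 37.3 CPM at E12.5, 40.6 CPM at E13.5, and 33.2, 36.2 and 14.8 CPM at E14.5. All 9 values were above every BVSC library of these stages, the highest of which had 4.18 CPM. The 14.4 and 17 CPM of E15.5 lay between the 2 BVSC libraries, and the 15 and 18.1 CPM of E16.5 lay below both, close to the 19.1 CPM of library 20 and far from library 22. At E17.5 the Negative cells of libraries 24 and 25 had 47.0 and 8.43 CPM, against 302.0 and 43 CPM in the BVSC cells of the same libraries. Each thus lay below the BVSC pool of its own library, though 47.0 CPM was above the BVSC pool of library 25. At E18.5 the Negative libraries had 40.3 and 81.2 CPM, below both BVSC libraries.

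In an added fit with a gate difference for each stage, 4 of 5 members differed between gates at E14.5, where 30.4% of 11291 genes did. Sohlh1 was lower in BVSC cells there, with a log2 difference of −3.92 ± 0.90 (adjusted p = 0.000877). Figla (6.20), Lhx8 (5.78) and Sohlh2 (5.50) were higher. At E18.5 the count was 2 of 5, Lhx8 (3.43) and Sohlh2 (3.99), where 17.4% did. The Lhx8 call there was lost without library 6 (adjusted p = 0.113) or 26 (0.153), and the Sohlh2 call without library 6 (0.171). Sohlh1 had 2.74 ± 1.15 (adjusted p = 0.0967) at E18.5.

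The difference between the 2 gate effects, E18.5 minus E14.5, passed for Sohlh1 alone, 1 of 5, where 2.76% of genes passed. It was 6.66 ± 1.51 on the log2 scale (adjusted p = 0.00908 with edgeR). Without library 26 it was 6.95 (adjusted p = 0.123) and without library 6 it was 6.51 (0.151), so the call needed both libraries of E18.5.

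The Sohlh1 UMIs of the Negative gate were concentrated in few cells. In E11.5 to E16.5, 62 of 439 Negative cells, from 13 libraries, had at least 10 Sohlh1 UMIs, with a median of 121 CPM and a highest count of 90 UMIs. In the 7 libraries of these stages with a Negative pool and no BVSC cells, such cells carried 70.4% to 100% of all Sohlh1 UMIs. In library 13 of E14.5, 13 of 46 cells carried 96.2%.

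The summed germ cell markers of these cells were close to those of other Negative cells. None of the 62 had more germ than somatic marker UMIs, against 10 of the other 377. Their median germ marker level was 119 CPM, against 115 CPM in the other cells, and their somatic marker level was 2040 CPM in both. Their median depth was 209308 UMIs, against 170871. A Figla UMI was found in 10 of the 62 and 67 of the other 377, a Nobox UMI in 1 and 3, and an Lhx8 UMI in 0 and 7. A Sohlh2 UMI was found in 28 of the 62 and 94 of the 377, a larger share of the deeper Sohlh1-positive cells. The cells were picked by their Sohlh1 count, so their Sohlh1 level is a description.

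The Negative cells of late libraries shared with BVSC cells held transcripts of all 5 genes. In libraries 24, 25, 6 and 26 (E17.5 and E18.5), every Negative cell had a Figla UMI, at 49.7 to 236.9 CPM, and 58 of 90 cells reached 100 CPM. Nobox stood there at 1.69 to 69.0 CPM, Lhx8 at 2.11 to 42.4 CPM, Sohlh1 at 8.43 to 81.2 CPM and Sohlh2 at 2.03 to 8.67 CPM. In the 2 Negative libraries of E16.5 that held no BVSC cells, Figla was at 19.6 and 0 CPM, and Nobox and Lhx8 at 0 to 0.403 CPM. Library 17 of E15.5, also of Negative cells alone, had Figla at 79.2 CPM and the highest germ marker sum of the gate, 830 CPM. The part of shared libraries and of germ cell RNA in these levels was not tested.

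The cofactors and inhibitors of these factors were read as a list of 11 genes, of which 6 were in the table: the E-protein gene Tcf3, the helix-loop-helix inhibitor genes Id1 and Id3, and the LIM-domain partner genes Ldb2, Lmo4 and Ssbp3. From E11.5 to E14.5, 3 of 6 rose and none fell, where 8.35% of all genes rose and 5.58% fell. The list's median was 1.13 on the log2 scale against 0.07 over all genes. Lmo4 rose by 3.6 ± 0.71 (adjusted p = 0.00173), from 2.03 ± 0.10 CPM (SD, n = 2) to 28.5 ± 6.35 CPM (n = 4), and Id1 rose by 1.17 and Ssbp3 by 1.08. From E14.5 to E18.5 Id1 rose by a further 1.51 ± 0.29 (adjusted p = 0.000875) and Lmo4 fell by 2.70 ± 0.67 (0.00745) to 4.58 ± 3.20 CPM (n = 2). The other 4 did not pass, and 18.9% of all genes passed over this span. At E15.5 against E14.5, Id3 alone passed and was lower (−1.30), where 6.26% of all genes passed. Between gates, 5 of 6 were lower in BVSC cells, where 29.8% of all genes were, led by Ldb2 (−5.10) and Lmo4 (−2.26), with a median of −0.50 against 0.18 over all genes.

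The early oocyte genes that literature links to these factors made a list of 35, of which 23 were in the table and 20 were tested by stage. From E14.5 to E18.5, 9 of 20 rose and none fell, where 9.67% of all genes rose and 9.24% fell. The list's median was 2.54 on the log2 scale against 0.00 over all genes. Zp2, a zona pellucida gene, had 0 UMIs in the 4 BVSC libraries of E14.5 and 59.9 and 64.7 CPM at E18.5, which is at least 1640-fold higher with 3 counts over the group as the floor. Nlrp5, a maternal effect gene of the subcortical complex of oocytes, went from 0.151 ± 0.135 CPM (SD, n = 4) to 109.9 ± 46.7 CPM (n = 2), a rise of 9.34 ± 1.04 on the log2 scale (adjusted p = 5.69e-06). Tbpl2, an oocyte TBP-like gene, had 0 UMIs against 39 at E18.5, at least 39.9-fold higher (adjusted p = 0.0481). Padi6, of the same oocyte complex as Nlrp5, rose by 5.98 ± 1.71 (0.0179). Gja4, Kit, Uchl1, Cpeb1 and Foxo3 also rose. Both genes set at their bounds lie above the list's median, which is the same with them.

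Earlier, the list moved little. From E11.5 to E14.5, Cpeb1, an oocyte mRNA regulator gene, rose by 1.45 and Kit, the receptor gene of Kit ligand, fell by 1.16. That was 1 each of 20, where 8.35% of all genes rose and 5.58% fell. The list's median was −0.34 against 0.07 over all genes. From E14.5 to E15.5 Kit (−1.91 on the log2 scale) and Zp3, a zona pellucida gene, fell and none of the 20 rose, where 6.26% of all genes passed. Zp3 had 112 UMIs at E14.5 and 0 at E15.5, at least 20.6-fold lower. Between gates, 10 of the list were tested, of which 5 were higher in BVSC cells, where 38.0% of all genes were higher and 29.8% lower. The 5 were led by Cpeb1 (4.40), Elavl2 (3.99) and Dppa3 (3.6), and Padi6 was lower (−2.41). Dppa3 drives the ECFP reporter of the sort. Of a list of 6 spermatogonial genes of the same factors, 3 were in the table and 2 were tested by stage, where Kit, already given, was the 1 that passed.

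Within single libraries, cells in which all 4 late genes were high were set against cells of the same library with none of Nobox, Lhx8 and Sohlh1 high. A gene low in 1 class would pass a floor of 10 CPM only through the class where it is high, so no count over the list is drawn. Among genes with at least 10 CPM in both classes, Kit, Uchl1, Dppa3 and Foxo3 were at least 2-fold higher in the cells with all 4 high. This held in library 22 of E16.5 (7 against 73 cells), library 24 of E17.5 (21 against 23 cells) and library 6 of E18.5 (46 against 12 cells). Elavl2 was less than 2-fold higher in each of the 3 libraries, Cpeb1 reached 2-fold in library 24 alone, and Dynll1 was lower in each. No gene at that level in both classes was at least 2-fold lower. In library 6 Zp2 stood at 83.1 against 12 CPM, Nlrp5 at 100.3 against 10.6 CPM, Kit at 310.3 against 64.1 CPM and Gja4, an oocyte gap junction gene, at 64.8 against 2.49 CPM. Sohlh2 was at 46.0 against 78.5 CPM in library 22, 72.2 against 94.0 CPM in library 24 and 99.5 against 71.3 CPM in library 6, so it was lower in the cells with all 4 in 2 of the 3 libraries. The median depth was 298086 UMIs in the cells with all 4 high against 213012 in the others of library 24. It was 149423 against 137633 in library 22 and 298197 against 288288 in library 6. The classes were cut on the members' own levels, and the share of all genes that differed between them was not counted. A trait of this list thus cannot be told from a general difference between these cells. The cells of a library are not replicates, and these values carry no test.

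Over the 18 BVSC pools, the genes most like each member by Pearson's r of log2(CPM + 1) among 10246 genes were Gm6880 (0.988), Taf7l (0.985) and Zmat1 (0.983) for Figla, and Tsga8 (0.983), Ctnna3 (0.977) and Gm5860 (0.975) for Nobox. For Lhx8 they were Tmc2 (0.975), Pramel3 (0.965) and Prdm16 (0.964), for Sohlh1 Gm5860 (0.949) and Gabra3 (0.948), and for Sohlh2 Mettl8 (0.897), Tuba3b (0.885) and Lmo1 (0.876). Among the members, Nobox and Lhx8 had 0.951, Lhx8 and Sohlh1 0.934, and Nobox and Sohlh1 0.92. Figla had 0.711 to 0.851 with these 3, and Sohlh2 had −0.468 to 0.115 with the other members. The pools share stages, so these values describe likeness of course only.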

How the data were processed

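Polyadenylated RNA of single cells picked after fluorescence sorting was tagged per cell and per molecule with a modified STRT-seq method enriched for 3′ ends, per the labels' protocols. The deposited values are raw counts of UMIs per gene and cell. The submitters' processing notes name build mm10 and the tools STAR, featureCounts, Subread, UMI-tools and CASAVA 1.8. In the sources used here, the role of each tool, the strand setting and any filters are not given. The table read here ended within a line, and its 16344 complete genes held a median of 51.2% (40.1% to 56.4%) of a cell's deposited UMI total. Genes on the remaining chromosomes were not analysed here.

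All 1881 cells were kept, and their 1881 names were distinct. No doublet caller was run on these picked cells. Pools of at least 5 cells by library, stage and gate held 4743602 to 27498626 UMIs (BVSC) or 700825 to 13141802 (Negative), and CPM were scaled by deposited totals. Libraries served as replicates. Pools were tested with edgeR 4.0.16 (R 4.3.3; quasi-likelihood, TMM, filterByExpr, adjusted p of 0.05), with a mean per stage in BVSC pools, or gate and stage over both gates. Standard errors were taken as the size of the log2 fold change over the root of F. DESeq2 1.42.0, other scalings, no low-count filter, thinned or merged pools and leaving out each library were alternatives. The fits recovered known changes in simulated counts. Cells were analysed with Python 3.11.15, numpy 2.4.6 and scipy 1.17.1. Upstream sequences came from RefSeq (GRCm38.p6), where all 5 genes matched, and positions from GENCODE M21.

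The members and gene lists were chosen with earlier results of these data known. Named genes are the 5 members, the 3 genes most like each (1 is not reported here), and up to 4 of each list with the largest change among those that passed, with others of a list added by name after their values were seen.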

Additional observations from a re-analysis of the deposited data

Results flagged for a closer look

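Sohlh1 in BVSC cells of E14.5 had 1 library far from the other 3: library 12 stood at 4.18 CPM, and its gap to the nearest was 0.912 of the whole range, above Dixon's 95% limit for 4 samples. It was 1 of 5 groups examined, and chance alone puts about 1 in 20 groups past that limit.

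The difference between gates for Sohlh1 changed with stage, as the report gives: the log2 difference of BVSC over Negative pools was higher by 6.66 at E18.5 than at E14.5.

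The gate labelled BV, which entered no comparison, held enough cells for a pool in libraries 4 and 5 of E14.5. Figla stood there at 37.5 and 184.8 CPM, Lhx8 at 4.10 and 6.14 CPM, and Sohlh2 at 142.6 and 143.9 CPM. The highest Negative library of E14.5 had 3.46, 0.138 and 8.43 CPM for the same genes. Sohlh1 was at 8.78 and 4.91 CPM, below the 3 Negative libraries of that stage (14.8 to 36.2 CPM), and Nobox at 0 and 0.682 CPM, below the highest of them (0.796 CPM). The BV pool of library 2 of E11.5, of 5 cells, had 0 UMIs of all 5 genes. Its germ cell markers summed to 136.6 CPM and its somatic markers to 185.8 CPM, whereas the germ cell markers of the BV pools of E14.5 summed to 2761 and 3175 CPM. By markers it was thus unlike the BV pools of E14.5.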

How the results depend on the processing

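The order of onset kept Sohlh2 first and Figla second in each setting tried. Counted in days after E11.5, it was 0 for Sohlh2, 3 for Figla and 5 for Nobox, Lhx8 and Sohlh1. With 50% of cells at 100 CPM as the rule, it was 2 for Sohlh2, 4 for Figla and 7 for the other 3, and with 50% of thinned cells holding a UMI it was 6 for these 3. At 20 CPM Nobox moved to 7 and Sohlh1 to 6, and at 5 CPM Lhx8 moved to 4. Leaving out single libraries gave 2 to 3 days for Figla and 4 to 5 for Lhx8 and for Sohlh1.

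The share of BVSC cells with all 5 genes at E16.5, E17.5 and E18.5 was 29.3%, 64.8% and 96.9% without thinning, 5.78%, 22.2% and 66.7% with 2 UMIs required, and 0.532%, 6.34% and 14.4% at 100 CPM. Thinned to 100000 UMIs it was 53.3% at E17.5 and 93.8% at E18.5. Leaving out single libraries gave 5.56% to 21.7%, 10.3% to 67.2% and 83.3% to 88.4%.

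At E15.5 against E14.5 the members called were 4 without the low-count filter, 2 with DESeq2, 2 without the 3 cells of library 18, 0 in thinned pools and 0 to 4 when single libraries were left out. Sohlh1 there ran from −2.25 (without library 18) to 4.41 (without library 12). Without the low-count filter 2 members were called at E12.5 against E11.5, E13.5 against E12.5, E17.5 against E16.5 and E18.5 against E17.5, and 3 at E16.5 against E15.5, where of 13832 genes 59, 102, 67, 201 and 234 were. Leaving out single libraries gave 0 to 1 at the first 2 of these steps. Between gates 2 of the 3 members still tested were called with a block for library and in thinned pools, and Sohlh1 was lower at −2.38 with DESeq2 (adjusted p = 0.00156). The cause of these changes was not tested.

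The deposited replicate numbers did not pair the libraries: deviations of same-numbered pools correlated at −0.22 to 0.244 (median −0.0233) over 28 pairs of stages, 3 of them above 0.1. Pools merged by that number called 0 members at E15.5 against E14.5, with the replicate block (Nobox adjusted p = 0.163) or without it (0.146). Genes called over all settings ranged from 34 to 1265 (641 as reported) at E15.5 against E14.5, 26 to 473 (136) at E14.5 against E13.5, 526 to 2204 (1428) at E14.5 against E11.5, 1030 to 2454 (1938) at E18.5 against E14.5, and 3197 to 6442 (4923) between gates. At E12.5 against E11.5 they ranged from 2 to 59, and at the 4 other steps from 0 to 234 at most. With 2 libraries at most stages, and Nobox at no more than 1.14 CPM before E15.5, depth and library number limit what the early steps can show.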

Other observations

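In library 18 of E15.5, 3 BVSC cells held 68.9% of the library's Sohlh1 UMIs (209, 106 and 82), while the other 64 cells had a median of 2 and a highest count of 30. The same 3 cells, picked after their values were seen, had 217, 126 and 151 UMIs of Dnmt3l (median of the others 2), 236, 104 and 138 of Rhox10 (4) and 153, 101 and 124 of Sall4 (5), with 10, 4 and 3 of Sohlh2 (20.5). Without them the library's Sohlh1 level was 12.4 CPM in place of 36.5 CPM. Library 16 of the same stage had 10 Sohlh1 UMIs in all, in 2 cells, and 0 UMIs of Dnmt3l and Rhox10.

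Names of many cells carry a letter C, D or P, which the sources used here do not define. At E16.5 the C cells had the highest Nobox level in both libraries, with 14.8 CPM against 12 (D) and 2.79 (P) in library 20 and 88.7 CPM against 10.2 (D) and 38.7 (P) in library 22. Sohlh1 followed with 29.2, 18.9 and 6.33 CPM (C, D and P) in library 20 and 140.6, 23.8 and 83.2 CPM in library 22. C stood first in both libraries of E16.5 for both genes, whereas D and P changed places. At E15.5 this did not hold. C was last for Nobox in library 16, with 3.72 CPM against 11.7 (D) and 5.66 (P), and first in library 18. For Sohlh1, C was first in library 16, but P was first in library 18, with 225.3 CPM in 6 cells against 14.7 CPM in C. At E14.5, Figla by letter was 164.0, 85.7 and 67.0 CPM in library 12 and 87.3, 65.7 and 93.0 CPM in library 14, so C was not first in both there.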
